A study of Mus musculus with 2 samples.

Results

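The genes described here are 9 members of the Bcl2 family, the regulators of the mitochondrial pathway of apoptosis, out of 32285 genes listed in the files. They were chosen by name and not by a rule on their values, though with earlier results of these data known. They fall into 3 roles. Bcl2, Mcl1 and Bcl2a1b are anti-apoptotic. Bcl2l11 (BIM), Bbc3 (PUMA), Pmaip1 (NOXA) and Bid are BH3-only proteins. Bax and Bak1 are the effectors. The 4 BH3-only genes and the 2 effectors are together called the pro-apoptotic members.

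The values come from droplet-based single cell RNA-seq of LSK cells, the Lin-Sca-1+c-Kit+ fraction of bone marrow (BM) that holds stem cells and early progenitors. One library was made from miR-142 WT CML mice and 1 from miR-142 KO CML mice. Both groups were 8-10 weeks old and labelled BCR-ABL+, since both carried the SCLtTA/BCR-ABL transgene pair on a B6 background, in which BCR-ABL, the kinase that drives chronic myeloid leukemia (CML), comes on under a stem cell (SCL) promoter once tetracycline is withdrawn. Per the study's methods, BCR-ABL had been induced by tetracycline withdrawal in both groups before the cells were sorted. The KO mice lacked miR-142 in the germline, so any cell of the animal, and not LSK cells alone, was without it. The comparison asks how loss of this microRNA goes with the state of leukemic LSK cells. With 1 library per group and the number of mice behind each not stated, no test was possible: differences between the libraries cannot be told apart from differences between animals or captures, and each interval below is a 95% interval that covers counting error only.

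In haematopoietic cells as elsewhere, anti-apoptotic members bind and hold the effectors and the BH3-only proteins, BH3-only proteins are switched on by stress, cytokine withdrawal or DNA damage, and freed Bax and Bak1 open the outer mitochondrial membrane so that cytochrome c leaks out. Mcl1 is known to be needed by haematopoietic stem cells and Bcl2 is high in lymphoid cells. BCR-ABL signalling is known to keep Bcl2l11 low. Much of this control acts on the proteins, which were not measured here.

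After a minimum of 8000 unique molecular identifiers (UMIs, each standing for 1 captured transcript) and under 10% mitochondrial UMIs, the WT library held 5363 cells with 138183896 UMIs and the KO library 5458 cells with 158438757 UMIs. The median cell had 19443 and 24182 UMIs. The libraries shared 4 of these cell barcodes. The check of the labels was clear: Mir142hg, the host transcript of miR-142, had 1260 UMIs in WT and 20 in KO. The sorted markers were present in both, with Kit at 86.4 and 68.3 CPM (counts per 1000000 UMIs of the library's cells), Ly6a (Sca-1) at 96.8 and 153 CPM and Cd34 at 255 and 199 CPM.

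The makeup of the libraries differed widely, so pooled values of the Bcl2 family are given below with equal shares of marker-based cell groups as well. Cells were sorted into gates by fixed marker genes, none of them a family member. HSC-like cells (at least 3 of 8 stem cell markers) were 21.6% of WT and 6.19% of KO cells, lymphoid-primed-like cells 11.6% and 5.90%, monocyte-like cells 6.86% and 5.79%, megakaryocyte-like cells 3.86% and 2.75%, and basophil/mast-like cells 4.03% and 5.62%. Granule-high cells, which carry transcripts of neutrophil granule proteins such as Elane and Mpo, were 7.92% and 41.0%. Cells that met the basophil/mast, innate lymphoid or plasma definition were placed there whatever else they met. Cells that met both the granule and the monocyte cut were called monocyte-like. Cells that met more than 1 of the stem cell, lymphoid-primed, myeloid (granule or monocyte), megakaryocyte and erythroid definitions (mixed) were 8.60% and 4.23%. Cells that met no definition (ungated) were 34.1% and 24.5%. These 8 gates held at least 50 cells in both libraries. Innate lymphoid-like cells reached that number in KO (212 cells, against 14 in WT), WT held 36 plasma-like cells against 0 of 5458 in KO, which allows a share of up to 0.0550%, and erythroid-like cells were 24 and 11. A gate is a range and not a cell type: of the cells with 3 or more stem cell markers, 952 of 1555 in WT and 424 of 557 in KO had exactly 3, and 1634 and 1326 further cells had 1 fewer.

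The microRNA lost in KO has 2 mature arms, and their sequences are shown because matches to their seeds were looked for in the members' 3′ UTRs. Each is given 5′ to 3′ from RefSeq (GRCm38.p6), with the seed, bases 2 to 8, in capitals. The arms lie on the plus strand of chromosome 11 at 87756903 to 87756925 (3p) and 87756867 to 87756887 (5p).
mmu-miR-142a-3p: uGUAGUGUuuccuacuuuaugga
mmu-miR-142a-5p: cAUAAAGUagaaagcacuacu

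The longest annotated 3′ UTR of each member (GENCODE M21, GRCm38), on its sense strand, was searched for the reverse complement of the seed, ACACTAC for the 3p arm and ACTTTAT for the 5p arm, and for the reverse complement of bases 2 to 7 followed by A, CACTACA and CTTTATA. Of the 9 members, 7 held none of these letters. Mcl1 held 1 match to the 5p seed at bases 1822 to 1828 of its 2353-base 3′ UTR, and Pmaip1 held 1 CACTACA match for the 3p arm. The Mcl1 window is shown with the match in capitals.
Mcl1: acttcagagcACTTTATgtagttgaat
Over 21037 genes with a 3′ UTR, ACTTTAT occurred in 14.3% and CACTACA in 7.28%, and 1 or both heptamers of an arm occurred in 10.3% for 3p and 21.4% for 5p. A match is a description of letters and not a shown site. Bcl2, whose 3′ UTR is the longest of the members at 5086 bases, held no match.

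Pooled over all cells, the members' levels covered a wide range. Mcl1 and Bax were the most abundant members, at 161 and 159 CPM in WT. Bak1 (68.3), Bcl2 (58.2) and Bid (33.9) followed, Bcl2l11 (8.94), Bbc3 (7.75) and Pmaip1 (6.12) were low, and Bcl2a1b was near 0 (0.463). These are UMI levels from the 3′ end of transcripts and are not scaled by length. A mean of 10 CPM over both libraries was reached by 5 of the 9 members, Bcl2, Mcl1, Bid, Bax and Bak1.

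**Figure D1:**
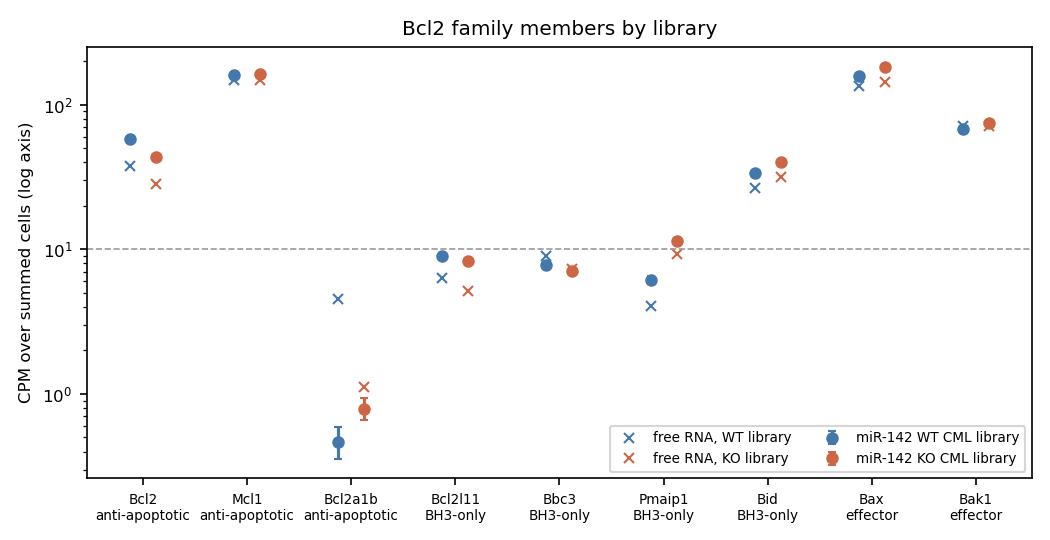
Level of each member in CPM (log axis) in the WT (blue) and KO (orange) library, with circles for the summed cells, bars for exact Poisson 95% intervals (mostly smaller than the circles) and crosses for free RNA from barcodes of 1 to 100 UMIs. The dashed line marks 10 CPM, which 5 members reached as a mean of both libraries. Pmaip1 was at 6.12 CPM in WT against 11.5 in KO, and Bcl2a1b lay below its own free RNA level in both libraries.

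A level at least 25% above that of the other library, with an interval of the ratio that left out equality, was taken as past the mark. By this rule, 2 members were higher in KO (Pmaip1 and Bcl2a1b) and 1 was lower (Bcl2). Bcl2a1b met the rule by its counts, here and in the tallies below, but lay under its free RNA level, as described next. Over the 7483 genes of at least 10 CPM, 7.60% were higher and 18.8% lower by the same rule, and the median log2 ratio (KO over WT) was -0.08. Pmaip1 and Bcl2a1b did not reach 10 CPM themselves, so they are not among those genes. In the gates and groups below, the share is again over genes of at least 10 CPM there, while members were tallied at any level. The remaining 6 members, Mcl1, Bcl2l11, Bbc3, Bid, Bax and Bak1, were not past it.

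Among the anti-apoptotic members, Bcl2 had 8046 UMIs in WT and 6891 in KO, a level of 58.2 CPM (57.0 to 59.5) against 43.5 CPM (42.5 to 44.5) and a log2 ratio of -0.42 (-0.47 to -0.37). This ratio was at percentile 11.3 of all tested genes. It did not pass the mark when barcodes of more than 300 UMIs were all counted (-0.18) or when each cell was thinned to 8000 UMIs so that it weighed the same (-0.10). Mcl1 had 22289 and 25889 UMIs, or 161 CPM (159 to 163) against 163 CPM (161 to 165). Its pooled levels were within counting error of each other, with a log2 ratio of 0.02 (-0.01 to 0.04). Mcl1 encodes a short-lived protein that is rebuilt continuously from its transcript. Bcl2a1b, a gene best known from neutrophils and activated lymphocytes, had 64 UMIs in WT and 125 in KO and was seen in 1.10% and 2.14% of cells. Its level among free RNA was 4.56 CPM in WT against 0.463 in cells, and 1.11 against 0.789 in KO, so these UMIs were at or under the background level and the ratio is not read as expression. It also shares sequence with its copies. Of the 50-base windows of the Bcl2a1b transcript, 41.1% occurred in Bcl2a1a and 57.6% in Bcl2a1d, so that counts can be split or lost among the copies. Bcl2a1a had 4 and 17 UMIs and Bcl2a1d 31 and 62.

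Among the BH3-only members, Pmaip1 differed most. It had 846 UMIs in WT and 1822 in KO, or 6.12 CPM (5.72 to 6.55) against 11.5 CPM (11.0 to 12.04), a fold of 1.88 and a log2 ratio of 0.91 (0.79 to 1.03). NOXA, its product, acts mainly against MCL1. Bid, which links death receptors to mitochondria after it is cut by a caspase, had 4687 and 6330 UMIs, 33.9 and 39.95 CPM, with a log2 ratio of 0.24 (0.18 to 0.29). Bcl2l11 had 1235 and 1310 UMIs, 8.94 and 8.27 CPM, with a log2 ratio of -0.11 (-0.23 to 0.00). Bbc3, a p53 target, had 1071 and 1131 UMIs, 7.75 and 7.14 CPM, with a log2 ratio of -0.12 (-0.24 to 0.00). The pooled intervals of Bcl2l11 and Bbc3 both took in equality. Pooled Bbc3 was below its free RNA level too, which was 9.04 CPM in WT against 7.36 in KO.

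Both effectors were slightly higher in KO. Bax had 21945 and 28741 UMIs, or 159 CPM (157 to 161) against 181 CPM (179 to 184), with a log2 ratio of 0.19 (0.17 to 0.22). Bak1 had 9440 and 11864 UMIs, or 68.3 and 74.9 CPM, with a log2 ratio of 0.13 (0.09 to 0.17). Its free RNA level was 71.0 CPM in WT against 71.8 in KO, above the level of WT cells. Neither difference was past the mark, and neither kept its direction once the gate shares of the libraries were set equal.

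To set the gate shares equal, the 8 gates were given the same weights in both libraries, granule-high cells for example 25.1% and HSC-like cells 14.3%. Differences inside a gate remained, such as granule genes at 993 CPM in WT against 1772 in KO among HSC-like cells. The share of high cycling cells in each gate, given below, was not set equal either. The log2 ratio of Bcl2 then shrank to -0.17 (-0.22 to -0.11) and those of Bax and Bak1 came to -0.04 and -0.13. That of Mcl1 grew to 0.32 (0.29 to 0.35) and that of Bbc3 turned from -0.12 to 0.49 (0.35 to 0.63), with weighted levels of 7.86 CPM in WT against 11.0 in KO. The Bbc3 value takes in granule-high and monocyte-like cells, where Bbc3 lay under its free RNA level. Bcl2l11 turned from -0.11 to 0.19 (0.06 to 0.33). Pmaip1 kept its ratio, at 0.92 (0.78 to 1.06). On this weighting 5.97% of 7623 genes were higher and 8.03% lower by the same rule, and of the members Pmaip1, Bbc3 and Bcl2a1b were past it. As in the pooled count, these members did not reach a mean of 10 CPM over both libraries, so they are not among those genes. The members that did reach it were not past the mark.

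**Figure D2:**
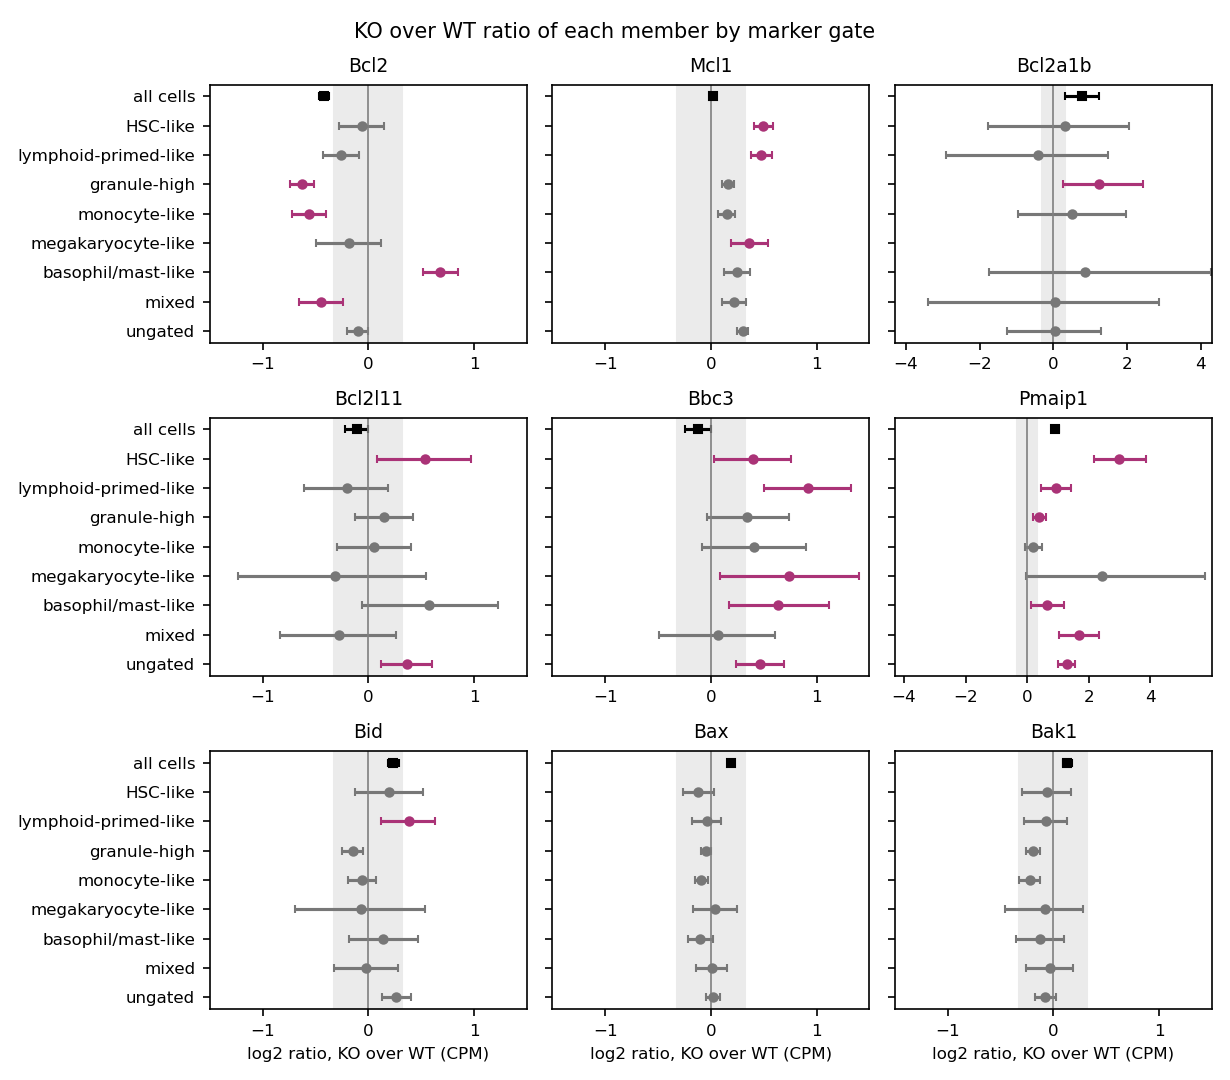
Log2 ratio of each member, KO over WT on CPM, pooled over all cells (black squares) and in each of the 8 gates (circles), with exact conditional 95% intervals as bars. The grey band spans the mark of 25% in each direction, purple circles lie past it with an interval that leaves out 0, and the panels of Bcl2a1b and Pmaip1 have wider axes. Bbc3 was below 0 when pooled and above 0 in each of the 8 gates, Pmaip1 was above 0 in each, and Bcl2 lay on both sides. In granule-high and monocyte-like cells Bbc3 lay under its free RNA level. The megakaryocyte-like value of Bcl2a1b is not drawn because WT had 0 UMIs there.

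In the HSC-like gate, 1158 WT and 338 KO cells were compared, and 4 of the 9 members were higher past the mark (7.08% of 8056 genes were) and 0 lower (11.3% were). Pmaip1 stood out, with 19 UMIs in WT and 40 in KO despite the smaller number of KO cells. Its level was 1.06 CPM in WT against 8.37 in KO, a log2 ratio of 2.98 (2.16 to 3.85). After each cell had been thinned to 8000 UMIs, a Pmaip1 UMI was held by 0.950% (0.475 to 1.69) of WT and 5.92% (3.65 to 8.99) of KO cells. Mcl1 was at 204 CPM in WT against 288 in KO, a log2 ratio of 0.50 (0.41 to 0.59). Bcl2l11 was at 8.81 and 12.8 CPM, a log2 ratio of 0.54 (0.08 to 0.97), and Bbc3 at 13.8 and 18.2 CPM, a log2 ratio of 0.40 (0.03 to 0.76). Bcl2 was nearly level in HSC-like cells, at 48.7 CPM in WT against 46.7 in KO with a log2 ratio of -0.06 (-0.28 to 0.15). Bid, Bax and Bak1 had intervals that took in equality as well. With a stem cell list without Hlf, a marker itself unequal between the libraries, the gate held 610 WT and 166 KO cells, and of the 4 members Mcl1 (0.47, 0.34 to 0.61) and Pmaip1 (3.16, 1.80 to 4.69) remained past the mark, while Bcl2l11 (0.28, -0.48 to 0.99) and Bbc3 (0.38, -0.19 to 0.93) did not.

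In free RNA Pmaip1 was at 4.06 CPM in WT against 9.33 in KO. The granule genes, which HSC-like cells should lack, reached 12.1% of their free RNA level in the KO gate and 15.9% in the WT gate. If all of those granule transcripts were free RNA, it would have brought at most 1.13 CPM of Pmaip1 in KO and 0.646 CPM in WT, against the 8.37 and 1.06 CPM measured. In ungated cells the same bound was 1.36 and 2.003 CPM, against 4.45 and 10.8 CPM measured. Cells that met the granule cut were kept out of the HSC-like and ungated gates, so the gating itself capped the granule level there. These bounds therefore describe only the cells kept, and how far the cap lowered them was not tested. In granule-high and monocyte-like cells, which make the granule transcripts themselves, the bound was the whole free RNA level and carries no information. For Bbc3 the bound in HSC-like cells was 1.44 CPM in WT against 0.890 in KO. In the 5 gates where Bbc3 was past the mark it was at most 4.24 CPM in WT, in basophil/mast-like cells. Of these 5 gates, all but the basophil/mast-like gate had the same cap on the granule level. In granule-high and monocyte-like cells Bbc3 lay under its free RNA level in both libraries, so its values there are not read as expression.

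In lymphoid-primed-like cells, 4 members were higher past the mark (8.59% of 7587 genes were) and 0 lower (13% were). These were Bbc3 (8.75 CPM in WT, 16.5 in KO, log2 ratio 0.92), Pmaip1 (6.42 and 12.3 CPM, 0.94), Mcl1 (169 and 235 CPM, 0.48) and Bid (28.0 and 36.5 CPM, 0.38). Bcl2 was lower there, at 84.1 CPM in WT against 70.3 in KO, but not past the mark, with a log2 ratio of -0.26 (-0.43 to -0.09). The megakaryocyte-like gate had 2 members higher (6.63% of 7764 genes were) and 0 lower (9.65% were). They were Mcl1 (159 and 205 CPM, log2 ratio 0.36) and Bbc3 (10.9 and 18.2 CPM, log2 ratio 0.74). Pmaip1 had few counts in megakaryocyte-like cells, with 2 UMIs in 207 WT cells and 6 UMIs in 150 KO cells.

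The 2 myeloid gates looked different from the stem and lymphoid-primed gates. In granule-high cells 2 members were higher (7.14% of 6991 genes were) and 1 lower (9.76% were). Bcl2 was the lower one, at 40.1 CPM over 425 WT cells against 25.9 CPM over 2236 KO cells, a log2 ratio of -0.63 (-0.74 to -0.52). Pmaip1 was higher by a modest step, at 8.76 and 11.5 CPM, a log2 ratio of 0.39 (0.18 to 0.62). Bcl2a1b had 9 and 84 UMIs, or 0.392 and 0.929 CPM, under its free RNA level in both libraries. In monocyte-like cells 0 members were higher (8.16% of 6952 genes were) and Bcl2 alone was lower (10.7% were), at 47.7 and 32.3 CPM with a log2 ratio of -0.56 (-0.72 to -0.40). Pmaip1 was at 12.3 and 14.0 CPM there, with an interval that took in equality. Mcl1 was at 119 and 133 CPM in granule-high cells and 128 and 142.3 CPM in monocyte-like cells, past the mark in neither. Bak1 was lower in both gates without passing the mark, with log2 ratios of -0.19 and -0.23.

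Basophil/mast-like cells had 3 members higher (14.1% of 7558 genes were) and 0 lower (11.7% were), and they were the gate where Bcl2 went the other way. Bcl2 was at 89.8 CPM in 216 WT cells and 144 CPM in 307 KO cells, a log2 ratio of 0.68 (0.51 to 0.85). Bbc3 (12.04 and 18.7 CPM, 0.63) and Pmaip1 (9.08 and 14.2 CPM, 0.64) were the other two. The gate was then divided, after these values had been seen, by whether a cell held more thinned UMIs of Cma1, a mast cell protease, or of Mcpt8, a basophil protease. In cells with more Cma1, Bcl2 was at 110 CPM (97.3 to 123) in 138 WT cells and 192 CPM (178 to 206) in 195 KO cells. In cells with more Mcpt8, it was at 66.3 CPM (55.7 to 78.4) in 74 WT cells and 74.8 CPM (64.2 to 86.6) in 93 KO cells, and these intervals overlapped. Pmaip1 had the opposite order among the proteases, with 13.5 and 20.1 CPM in cells with more Mcpt8 and 5.02 and 8.78 CPM in cells with more Cma1. High doublet scores marked 9.72% and 11.4% of the gate, and their part in these values was not tested.

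The mixed gate had 1 member higher (7.43% of 7818 genes were), Pmaip1 at 3.70 and 11.9 CPM, and 1 lower (17.2% were), Bcl2 at 77.2 and 56.7 CPM. The ungated cells, the largest group in WT, had 3 higher (6.20% of 7611 genes were) and 0 lower (9.21% were). Pmaip1 was at 4.45 and 10.8 CPM with a log2 ratio of 1.28 (1.01 to 1.56), Bbc3 at 8.47 and 11.7 CPM with 0.47, and Bcl2l11 at 8.23 and 10.6 CPM with 0.36. Mcl1 was at 172 and 213 CPM, just short of the mark at 0.30.

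Seen by gene, Pmaip1 was higher past the mark in 6 of the 8 gates, Bbc3 in 5, Mcl1 in 3, Bcl2l11 in 2, Bid, Bcl2 and Bcl2a1b in 1 each, and Bax and Bak1 in 0. Bcl2 was lower past the mark in 3. The Mcl1 interval lay above 0 in each of the 8 gates although its pooled ratio was 0.02, and its level was lowest in granule-high cells in both libraries. The gates share the 2 libraries, so their agreement is not a repeat of the experiment. They also held a smaller share of high cycling cells in KO, as given below.

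**Figure D3:**
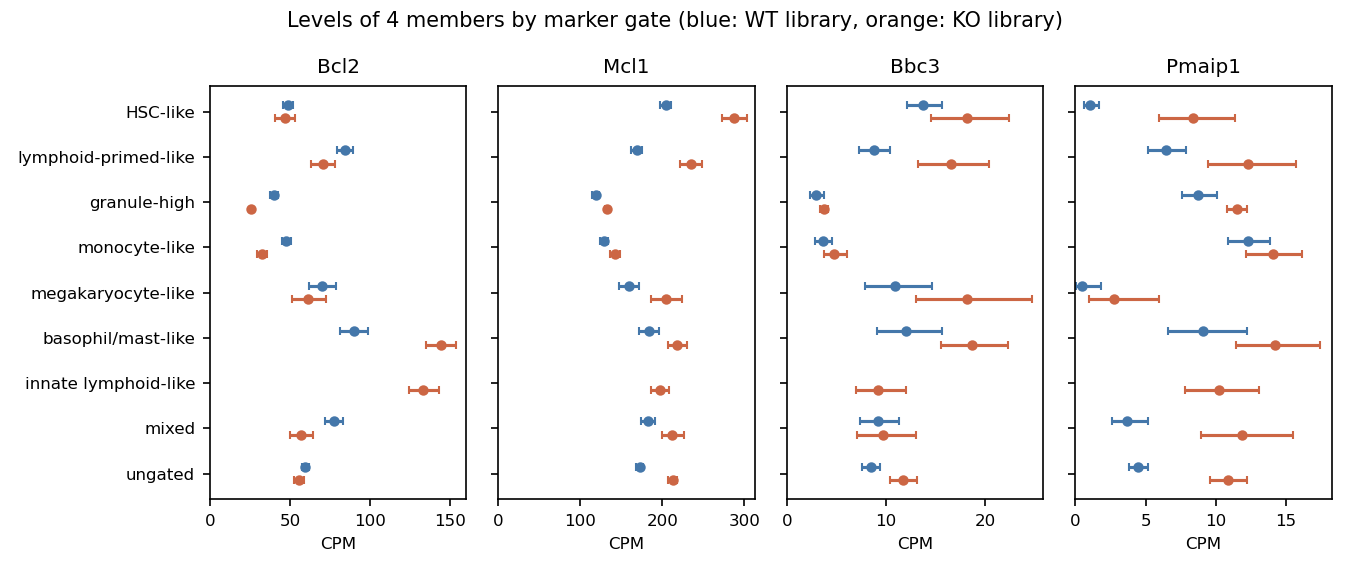
Levels of Bcl2, Mcl1, Bbc3 and Pmaip1 in CPM by gate, in the WT (blue) and KO (orange) library, with exact Poisson 95% intervals. Innate lymphoid-like cells are drawn for KO alone. Mcl1 and Bbc3 were lowest in granule-high cells in both libraries, where Bbc3 lay under its free RNA level. Bcl2 was highest in basophil/mast-like cells in both, and the Pmaip1 level of WT HSC-like cells, 1.06 CPM, compared with 8.37 CPM in KO.

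The order of the gates differed by member. Bcl2 ran from granule-high (40.1 CPM) to basophil/mast-like cells (89.8 CPM) in WT, with the HSC-like and monocyte-like levels inside counting error of each other and the same true of basophil/mast-like against lymphoid-primed-like. In KO it ran from 25.9 to 144 CPM in the same 2 gates, a range of 5.56-fold against 2.24-fold in WT, with innate lymphoid-like cells at 133 CPM not apart from the top. Mcl1 ran from granule-high to HSC-like cells in both libraries, 119 to 204 CPM in WT and 133 to 288 CPM in KO. Both ends of the Mcl1 order were apart from their neighbours in both libraries. Bcl2l11 was highest in lymphoid-primed-like cells, at 15.7 CPM in WT against 13.6 in KO, and lowest in granule-high cells, at 6.01 and 6.65 CPM. Most of its neighbours, 6 of 7 pairs in WT and 8 of 8 in KO, were not apart.

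The effectors and Bid were highest in monocyte-like cells, where Mcl1 was second lowest. Bax was lowest in HSC-like cells, at 108 CPM in WT against 99.8 in KO, and highest in monocyte-like cells, at 238 and 224 CPM, where it was within counting error of basophil/mast-like cells in both libraries. Bak1 ran between the same gates, from 42.8 to 106 CPM in WT and from 41.0 to 90.8 CPM in KO. Its HSC-like level was not apart from the megakaryocyte-like one in either library, nor its monocyte-like level from the granule-high one in KO. Bid was lowest in megakaryocyte-like cells (17.2 and 16.4 CPM), not apart from HSC-like cells, and highest in monocyte-like cells (57.4 and 54.9 CPM). Pmaip1 was likewise lowest in megakaryocyte-like cells, and in WT the HSC-like level could not be told from it. In KO 7 of its 8 neighbouring pairs were within counting error, and outside the megakaryocyte-like gate the KO levels spanned 8.37 to 14.2 CPM, against 1.06 to 12.3 CPM in WT. Bbc3 counts were lowest in granule-high and monocyte-like cells, at 2.96 and 3.62 CPM in WT and 3.75 and 4.80 CPM in KO. Those 2 gates were within counting error of each other, and both lay under the free RNA level of Bbc3.

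Cycling is a second axis that runs through the gates. By the summed thinned UMIs of 10 cycling markers, cells were put in a low (up to 4), a middle and a high (12 or more) group, and each was divided at 50 UMIs of granule genes. Among cells with fewer than 50 granule UMIs, Bbc3 was highest in the low cycling group in both libraries, at 17.8 CPM in WT against 23.6 in KO, and came to 6.12 and 8.19 CPM in the high group. Mcl1 ran in the same direction, from 256 to 153 CPM in WT and from 321 to 170 CPM in KO. Bcl2 ran in that direction in KO alone, at 101 CPM in the low and 63.5 CPM in the high group. In WT it was at 60.6 and 70.1 CPM.

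The low cycling, low granule group held 1490 WT and 1255 KO cells. Here 5 members were higher past the mark (12.5% of 7837 genes were) and 0 lower (10.2% were), namely Bcl2 (log2 ratio 0.74), Mcl1 (0.33), Bbc3 (0.41), Pmaip1 (1.72) and Bid (0.35). In an alternative added after the values had been seen, basophil/mast-like, innate lymphoid-like and plasma-like cells were left out of this group, which left 1357 WT and 981 KO cells. Bcl2 was then at 52.5 CPM in WT against 52.7 in KO, a log2 ratio of 0.01 (-0.15 to 0.16), while Mcl1 (0.35), Bbc3 (0.32), Pmaip1 (1.86) and Bid (0.37) stayed past the mark. In high cycling, low granule cells, Pmaip1 (4.53 and 11.1 CPM) and Bbc3 were higher (5.45% of 7730 genes were) and 0 members lower (9.83% were). Both had means under 10 CPM over the libraries there, so they are not among those genes. In high cycling cells with 50 or more granule UMIs, 1 member, Bcl2a1b, was higher (7.86% of 7025 genes were) and Bcl2 was lower (8.95% were), at 46.2 and 29.9 CPM.

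**Figure D4:**
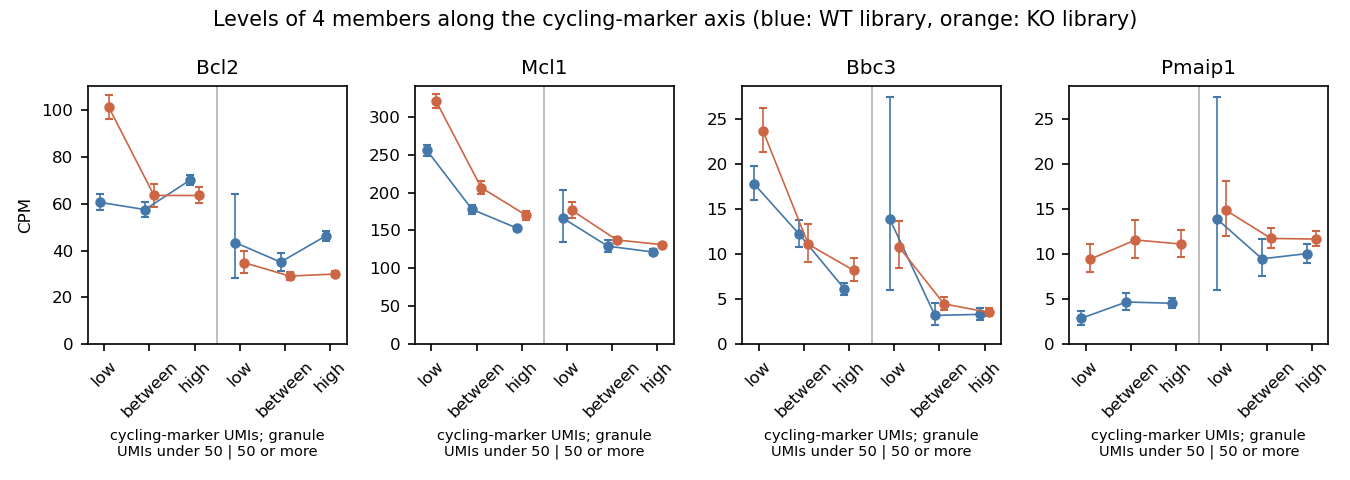
Levels of Bcl2, Mcl1, Bbc3 and Pmaip1 in CPM in cells with low, middle and high summed cycling markers, with fewer than 50 granule UMIs to the left of the grey line and 50 or more to the right, in the WT (blue) and KO (orange) library and with exact Poisson 95% intervals. Mcl1 and Bbc3 decline from low to high cycling in both libraries, and Pmaip1 on the left side is at 2.87 to 4.67 CPM in WT and 9.42 to 11.6 CPM in KO. The WT group with low cycling and 50 or more granule UMIs holds 23 cells, which gives the wide intervals.

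The balance of the family was summarised as the share of the 9 members' UMIs that fell on Bcl2, Mcl1 and Bcl2a1b. Pooled, the anti-apoptotic share was 43.7% (43.3 to 44.0) in WT and 39.1% (38.8 to 39.5) in KO. Inside the gates it was higher in KO in 8 of 8, with intervals apart in 4 and overlapping in 4. It was 56.6% in WT and 62.3% in KO among HSC-like cells, 51.7% and 54.9% among lymphoid-primed-like cells, and 44.4% and 51.6% among basophil/mast-like cells. In granule-high cells it was 30.1% and 31.3%, and in monocyte-like cells 29.3% and 30.7%. With the same gate weights in both libraries the shares were 43.9% in WT and 47.4% in KO, the opposite order to the pooled shares.

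Most of the anti-apoptotic UMIs were those of Mcl1. Without Mcl1, the share of Bcl2 and Bcl2a1b in the other 8 members was 17.1% (16.8 to 17.5) in WT and 12.1% (11.8 to 12.3) in KO, and it was lower in KO in 7 of the 8 gates. In HSC-like cells these were 20.3% and 19.0% with overlapping intervals, in granule-high cells 9.88% and 7.12%, and in basophil/mast-like cells, the exception, 20.8% and 29.8%. A share of transcripts does not give a share of protein, and UMIs are not scaled by length.

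**Figure D5:**
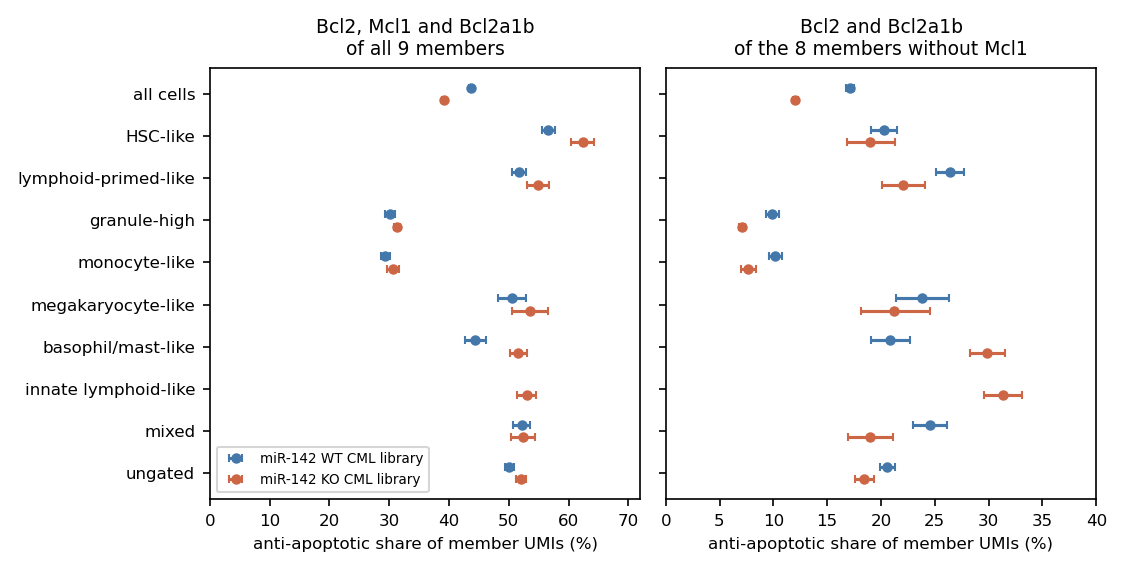
Share in percent of the UMIs of the 9 members that fell on the anti-apoptotic members (left), and the same without Mcl1 (right), pooled and by gate in the WT (blue) and KO (orange) library, with exact binomial 95% intervals. On the left the pooled KO share, 39.1%, lies below the WT share, 43.7%, while the HSC-like KO share, 62.3%, lies above 56.6%. On the right basophil/mast-like cells are the one gate with a higher KO share.

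Summed by role, the anti-apoptotic members had 220 CPM in WT against 208 in KO, the BH3-only members 56.7 and 66.9 CPM and the effectors 227 and 256 CPM. In HSC-like cells the anti-apoptotic sum was 253 and 335 CPM (log2 ratio 0.40), the BH3-only sum 43.1 and 61.7 CPM (0.52) and the effector sum 151 and 141 CPM (-0.10, -0.23 to 0.02). Both the anti-apoptotic and the BH3-only sums of HSC-like cells were thus higher in KO, and the effector sum was not apart. In granule-high cells the anti-apoptotic sums were equal within error, at 159.2 and 159.6 CPM, and the effector sum was 303 and 285 CPM.

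Per cell, thinned to 8000 UMIs, a WT cell held a mean of 3.94 UMIs of the 9 members and a KO cell 4.39. UMIs of both anti-apoptotic and pro-apoptotic members were found in 67.9% (66.7 to 69.2) of WT and 70.6% (69.4 to 71.8) of KO cells. Cells with anti-apoptotic UMIs alone were 14.1% and 9.05%, cells with pro-apoptotic UMIs alone 14.8% and 18.3%, and cells with none 3.17% and 2.07%. These shares are pooled over libraries of unlike makeup, with granule-high cells at 7.92% of WT and 41.0% of KO, and are not given by gate. At such depth a cell without a UMI is not a cell without the transcript. Mcl1 was seen in 71.9% and 71.3% of thinned cells and Bax in 63.7% and 69.99%, while Pmaip1 was seen in 3.24% (2.79 to 3.75) and 7.93% (7.23 to 8.68). Before thinning the Pmaip1 shares were 11.2% and 24.4%, with deeper KO cells.

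The wider apoptosis pathway was taken from a list of 57 further genes, of which 38 reached 10 CPM. Of these, 3 were higher past the mark (7.60% of all tested genes were) and 9 lower (18.8% were), with a median log2 ratio of -0.09 against -0.08 over all tested genes. The 3 were Endog (33.4 and 53.2 CPM), a mitochondrial nuclease, Htra2 (79.6 and 104 CPM), a protease released from mitochondria, and Tnfrsf1a (54.5 and 81.1 CPM), a TNF receptor. Those lower included the caspases Casp6 (24.3 and 16.1 CPM) and Casp2 (25.8 and 18.7 CPM), the caspase inhibitors Xiap and Birc2, Trp53 (203 and 157 CPM, log2 ratio -0.37), its ubiquitin ligase Mdm2, the transcription factor Foxo3 (32.5 and 20.6 CPM, log2 ratio -0.66), and Fbxw7, a ubiquitin ligase subunit that acts on MCL1. Set against the median of all genes, Xiap, Birc2, Trp53, Mdm2 and Fbxw7 were no longer past the mark, and Bad (0.38), the mitochondrial channel gene Vdac2 (0.39) and Cdkn1a (0.37) came past it as higher. With the same gate weights in both libraries, 0 of the 38 were lower past the mark (8.03% of all genes were) and 2 were higher (5.97% were). These were Tnfrsf1a (log2 ratio 0.47) and Cdkn1a (29.9 and 44.6 weighted CPM, log2 ratio 0.57), a p53 target that encodes the cell cycle inhibitor p21.

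Of the other family genes on that list, the BH3-only gene Bad was at 52.1 and 64.0 CPM, with a log2 ratio of 0.30. Bcl2l1 (BCL-XL), an anti-apoptotic member known from erythroid cells and platelets, was at 9.54 and 8.58 CPM, and its levels in gates were highest in basophil/mast-like cells (29.6 and 23.1 CPM). Bok, an effector-like member, was at 4.02 and 1.87 CPM. Hrk and Bcl2a1c had 0 UMIs in both libraries, which allows up to 0.0217 CPM in WT against 0.0189 in KO. The 6 further anti-apoptotic genes all stayed below 10 CPM.

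Genes whose levels ran most like those of a member over the 17 library-by-gate groups were named by Pearson's r of log2 CPM among 5373 genes of at least 20 CPM. The groups share 2 libraries, so r is a description. For Mcl1 they were Fos (r = 0.97), Hbb-bt (0.94) and Vmp1 (0.93), and for Bbc3 Ier2 (0.97), Card19 (0.96) and Vmp1 (0.96). For Pmaip1 they were Ctsg (0.92), Tspo (0.91) and Pgs1 (0.90), for Bcl2 Cast (0.87), Zfp36l1 (0.87) and Arhgef1 (0.81), and for Bcl2l11 Rnf111 (0.79), Ap2a2 (0.78) and Dusp2 (0.78). Ctsg, a granule gene, and Hbb-bt, an erythroid gene, are themselves among the markers that set the gates, so their r is not independent of the gating. Bid ran with Pgam1 (0.95), Tifab (0.94) and Zfp706 (0.93), Bax with Ufm1 (0.98), Tmem167 (0.98) and Mrps21 (0.97), and Bak1 with Nars (0.98), Mrpl33 (0.98) and Copz1 (0.97). For comparison, the 99th percentile of r over the candidates was 0.91 for Bax, 0.93 for Bak1 and 0.73 for Bcl2.

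Fos and Ier2, the genes most like Mcl1 and Bbc3, are immediate early genes, which stress and the handling of cells are also known to raise. A list of 8 such genes (Fos, Fosb, Jun, Junb, Egr1, Ier2, Atf3 and Dusp1), added after this likeness had been seen, was therefore summed. Pooled, the sum was 2344 CPM in WT against 1831 in KO, while inside the gates it was higher in KO in each of the 8. In HSC-like cells the sum was 4191 and 4687 CPM (log2 ratio 0.16), with Fos at 778 and 1182 CPM, and in lymphoid-primed-like cells it was 2372 and 3547 CPM (0.58). Of the 8 gates it was lowest in granule-high cells in both libraries, at 877 CPM in WT against 985 in KO. Mcl1 and Bbc3 were lowest in that gate as well, with Bbc3 under its free RNA level there. The part of the immediate early genes in the values of Mcl1 and Bbc3 was not tested.

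In the GRCm38 annotation (GENCODE M21) the members lie apart from each other on 8 chromosomes. Bcl2 (ENSMUSG00000057329) is on the minus strand of chromosome 1 from 106538178 to 106714274, Mcl1 (ENSMUSG00000038612) on chromosome 3 from 95658788 to 95663176 (plus strand), and Bcl2a1b (ENSMUSG00000089929) on chromosome 9 from 89199209 to 89207827 (plus strand). Bcl2l11 (ENSMUSG00000027381) is on chromosome 2 from 128126038 to 128162547, Bbc3 (ENSMUSG00000002083) on chromosome 7 from 16308393 to 16318205 and Pmaip1 (ENSMUSG00000024521) on chromosome 18 from 66458533 to 66465565, each on the plus strand. Bid (ENSMUSG00000004446) on chromosome 6 from 120891930 to 120916853, Bax (ENSMUSG00000003873) on chromosome 7 from 45461697 to 45466898 and Bak1 (ENSMUSG00000057789) on chromosome 17 from 27019810 to 27029009 are on the minus strand. Opposite-strand genes that are also in the files overlap Bcl2 (D630008O14Rik), Bid (Bcl2l13) and Bak1 (Ggnbp1). Whether reads were counted by strand is not given in the sources used here.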

How the data were processed

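Per the labels, about 8000 LSK cells per library were captured with a 10x Genomics 3′ kit. The deposited values are raw UMI counts per gene and barcode, which the authors made with Cell Ranger against mm10 and did not filter for cells. The submitters' processing notes give Cell Ranger 6.1.2, while the matrix header names Cell Ranger 4. The study kept barcodes with more than 300 UMIs and under 10% mitochondrial UMIs. Here barcodes needed at least 8000 UMIs (5363 and 5458 cells), while 9216 WT and 7370 KO barcodes passed 300 UMIs. The mitochondrial filter removed 24 and 4 barcodes.

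Counts were summed over cells and given as CPM with exact Poisson intervals, and ratios carry exact conditional binomial intervals (Python 3.11.15, scipy 1.17.1). The ratios with the same gate weights in both libraries carry normal approximations to the counting error. Shares are exact Clopper-Pearson, and cells were thinned to 8000 UMIs with 0 cells lost. Gates were cut on thinned UMIs of marker lists, and the cuts were set on the marker values alone after the files had been examined. The cuts were at least 3 stem cell, megakaryocyte, erythroid, innate lymphoid or monocyte markers, at least 4 lymphoid-primed, basophil/mast or plasma markers, or at least 50 granule UMIs. Of the granule list Azu1 was not found in the files, and of the pathway list Ddit3, shared by 2 features, was not used. Some genes of the lists are not reported here. Doublets were kept. Top Scrublet scores (scanpy 1.11.5) at 0.8% per 1000 cells were removed in an alternative. The ratio rule was tested on simulated counts.

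The 9 members and the lists were chosen with earlier results of these data known. Named genes were the members, pathway genes past 1.25-fold, and the 3 genes most like each member with at least 1000 UMIs. The alternatives were other UMI and mitochondrial minimums, other scalings, equal cell weights, the same gate weights, a stem cell list without Hlf, doublet removal and other folds.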

Additional observations from a re-analysis of the deposited data

How the results depend on the processing

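Across the 9 alternatives with a pooled ratio, 8 planned and 1 chosen after seeing the data, Pmaip1 stayed higher in KO and past the mark, with log2 ratios from 0.80 to 1.31, and Bcl2 stayed lower, from -0.69 to -0.10. Bcl2 was not past the mark with barcodes of more than 300 UMIs, with thinned cells or with the same gate weights, and the cause was not tested. The number of members past the mark, 3, was 2 with more than 300 UMIs (Bcl2a1b, Pmaip1), 2 with thinned cells (Pmaip1, Bid), 2 at a mark of 50%, and 3 with the same gate weights (Bcl2a1b, Bbc3, Pmaip1). All genes past the mark, 1978, came to 572 at 50% and to 6348 of 18348 when every gene with 1 UMI in each library was tested. The anti-apoptotic share in WT and KO was 44.3% and 40.9% with more than 300 UMIs, 40.5% and 35.6% with at least 16000 UMIs and 50.4% and 46.4% with thinned cells. It was 47.4% in KO with the same gate weights and 37.7% in KO without the plasma-like, innate lymphoid-like and basophil/mast-like cells, the alternative chosen after seeing the data. Without Mcl1 the share in WT and KO was 16.4% and 10.7% at 16000 UMIs and 19.4% and 15.8% with thinned cells, and in KO it was 14.2% with more than 300 UMIs, 15.6% with the same gate weights and 10.03% without those 3 gates. The order of WT and KO turned in the pooled share with the gate weights alone. In the HSC-like gate a marker list without Hlf, itself unequal between the libraries, gave a Pmaip1 log2 ratio of 3.16, and Bcl2l11 (0.28) and Bbc3 (0.38) were no longer past the mark there. No paired analysis was possible because each group has 1 library. No replicate could be left out for the same reason. Depth limits Bcl2a1b, and Pmaip1 in the megakaryocyte-like gate, to counts too low for a ratio.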
